A study of Bos taurus with 24 samples.

Results

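The 9 filopodia genes described here are MYO10, FSCN1, DAAM1, ENAH, VASP, EVL, RDX, EZR and MSN, chosen by name for the roles of their proteins in actin-based protrusions, out of 27607 genes in the count table. All 9 were found in the table and all 9 passed the filter on low counts. RNA was sequenced in 24 libraries of bovine follicle cells made with a low-input cDNA kit and a transposase-based library kit. In the study the question was whether the ability of granulosa cells to regrow transzonal projections onto a stripped oocyte differs between follicle stages, and whether the transcriptome differs with it. The late antral groups were cumulus cells (late_CC, 5 libraries), which surround the oocyte, and mural granulosa cells (late_MGC, 5 libraries), which line the follicle wall. The early antral groups were cumulus cells (early_CC, 5 libraries) and mural granulosa cells (early_MGC, 5 libraries), and the earliest group was granulosa cells of secondary follicles (secondary_GC, 4 libraries), which have no antrum. The labels name no treatment, genotype, breed or animal age for any group. They do not say whether the libraries of a group came from separate animals, so p-values measure only the spread between these libraries.

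Transzonal projections are thin, actin-filled processes that granulosa cells send through the zona pellucida to the oocyte surface, and they resemble filopodia in their core of parallel actin filaments. In a filopodium, formins and Ena/VASP proteins elongate the filaments at the tip, fascin ties them into a bundle, myosin X travels to the tip, and ezrin, radixin and moesin fasten the filaments to the plasma membrane. In mouse granulosa cells, Myo10, Fscn1 and Daam1 have been tied to the formation of these projections under the influence of the oocyte.

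MYO10 (ENSBTAG00000020126) encodes the motor and spans bases 56233771 to 56495596 of the plus strand of chromosome 20 in the ARS-UCD1.2 genome. FSCN1 (ENSBTAG00000003191), the gene of the bundling protein fascin, lies on the minus strand of chromosome 25 at 38748352 to 38757857. DAAM1 (ENSBTAG00000005984), a formin gene, lies on the plus strand of chromosome 10 at 71479280 to 71670966. Of the tip proteins of the Ena/VASP family, ENAH (ENSBTAG00000016185) lies on the minus strand of chromosome 16 at 28535630 to 28690127, VASP (ENSBTAG00000019604) on the plus strand of chromosome 18 at 53104828 to 53118627, and EVL (ENSBTAG00000009293) on the plus strand of chromosome 21 at 64912163 to 65089676. Of the linkers, RDX (ENSBTAG00000004672) lies on the minus strand of chromosome 15 at 20275874 to 20359908, EZR (ENSBTAG00000010347) on the minus strand of chromosome 9 at 95156270 to 95201305, and MSN (ENSBTAG00000003418) on the minus strand of chromosome X at 94696646 to 94769333. The counted exons add up to 8107 bases for MYO10, 5793 for DAAM1, 4895 for EVL, 4392 for RDX, 3964 for MSN, 2992 for EZR, 2744 for FSCN1, 2701 for ENAH and 2556 for VASP. EVL alone has other annotated genes within its span, 2 on the same strand, and reads where these overlap its exons cannot be told apart.

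Total counts per library ran from 8379801 to 31762400. The markers of 1 library went against its label. In the library labelled late_MGC 3, the summed level of 10 granulosa markers was 461 CPM (counts per 1000000 counts of the library), against 9619 to 13342 CPM in the other 4 late_MGC libraries. FSHR stood there at 10.6 CPM, against 302 to 381 CPM in the other 4. FOXL2 had no count there, but only 0.522 to 0.786 CPM in the other 4. NR5A2 was the largest part of the sum there, at 239 CPM, against 360 to 592 CPM. AMHR2, at 0.429 CPM, lay within the 0.363 to 1.38 CPM of the other 4. In the same library the 8 measured theca and stroma markers summed to 2136 CPM, against 11.6 to 29 CPM, led by LUM at 1621 CPM, while the theca enzyme CYP17A1 stood at 0.161 CPM. The 7 measured surface epithelium markers summed to 5150 CPM, against 15.3 to 31.8 CPM, mostly KRT8 and KRT18, while KRT7 had no count and MSLN 2 counts. Its mean correlation with its own group was 0.870, the lowest of the 24 libraries, with late_CC 3 (0.915) and early_MGC 4 (0.920) next. The members' results that include late_MGC are therefore given with and without this library, and the part these markers play in the results was not tested. Oocyte markers summed to at most 10.7 CPM in any library.

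Summed levels of genes listed as markers of other cell types also moved with stage in the remaining libraries. In mural cells the theca and stroma markers summed to 11.6 to 29 CPM in late_MGC without late_MGC 3, against 42.2 to 157 CPM in early_MGC. The surface epithelium markers summed to 15.3 to 31.8 CPM, against 52.9 to 236 CPM. Some genes of these lists did not fall in mural cells. PDGFRA had 1.23 to 5.38 CPM in late_MGC without late_MGC 3, against 0 to 1.17 CPM in early_MGC. In the same order, the medians were 2.56 and 1.89 CPM for COL1A1 and 7.51 and 6.67 CPM for CDH1. In cumulus cells the surface epithelium markers summed to 61.1 to 141 CPM in late_CC, against 327 to 605 CPM in early_CC, and the theca and stroma markers to 75.7 to 128 CPM, against 68.9 to 691 CPM. The epithelium sum of early_CC was mostly KRT8, at 272 to 539 CPM, against 38.7 to 66.3 CPM in late_CC and 267 to 464 CPM in secondary_GC. CDH1 of that list went the other way, with a median of 22.5 CPM in late_CC and 18.1 CPM in early_CC. The genes of the stroma list went both ways in cumulus cells. DCN, a matrix gene, had at most 1.55 CPM in late_CC and a median of 30.2 CPM in early_CC. PDGFRA had 14.3 to 79.5 CPM in late_CC, against 1.37 to 2.64 CPM in early_CC, and COL1A1 12.3 to 41.6 CPM, against 3.40 to 12.8 CPM. CYP17A1 and KRT7 had no count in any of these libraries. The granulosa markers summed to 5690 to 32339 CPM in late_CC, with a median of 23501 CPM, against 7405 to 9019 CPM in early_CC. The lowest late_CC value lay far below the median for most genes of that list. This held for INHBA (191 and 8039 CPM), HSD17B1 (345 and 2106 CPM), CYP19A1 (4.36 and 42.7 CPM) and AMH (208 and 639 CPM). It also held for FST (3044 and 8842 CPM), INHA (1076 and 2506 CPM), FOXL2 (0.491 and 2.40 CPM) and AMHR2 (0.277 and 1.62 CPM). The 2 values lay closer for NR5A2 (519 and 912 CPM) and FSHR (301 and 378 CPM). These lowest values were taken gene by gene. The part of these shifts in the stage effects was not tested.

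Levels per exon length, in TPM (counts divided by exon length, then scaled to a common total), ordered the 9 genes as follows. EZR averaged 24.9 to 42.6 TPM over the 5 groups, EVL 17.1 to 24.7 TPM and RDX 13.2 to 21.2 TPM. MYO10 averaged 2.63 to 12 TPM, DAAM1 4.66 to 11.5 TPM and MSN 6.04 to 15.2 TPM. ENAH averaged 3.90 to 9.07 TPM and VASP 4.10 to 8.92 TPM. FSCN1 averaged 0.918 to 5.02 TPM, which was the lowest of the 9 in early_MGC, early_CC and late_CC, but not in secondary_GC, where VASP averaged 4.81 TPM, nor in late_MGC with all libraries, where MYO10 averaged 2.63 TPM and FSCN1 2.67 TPM. The high ends of the MSN and VASP ranges are late_MGC means that hold the library labelled late_MGC 3. Without it late_MGC averaged 7.31 TPM for MSN and 5.07 TPM for VASP. FSCN1 averaged 0.214 TPM in late_MGC without that library, below the low end of its range above and the lowest of the 9 there, with MYO10 at 2.30 TPM.

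**Figure D1:**
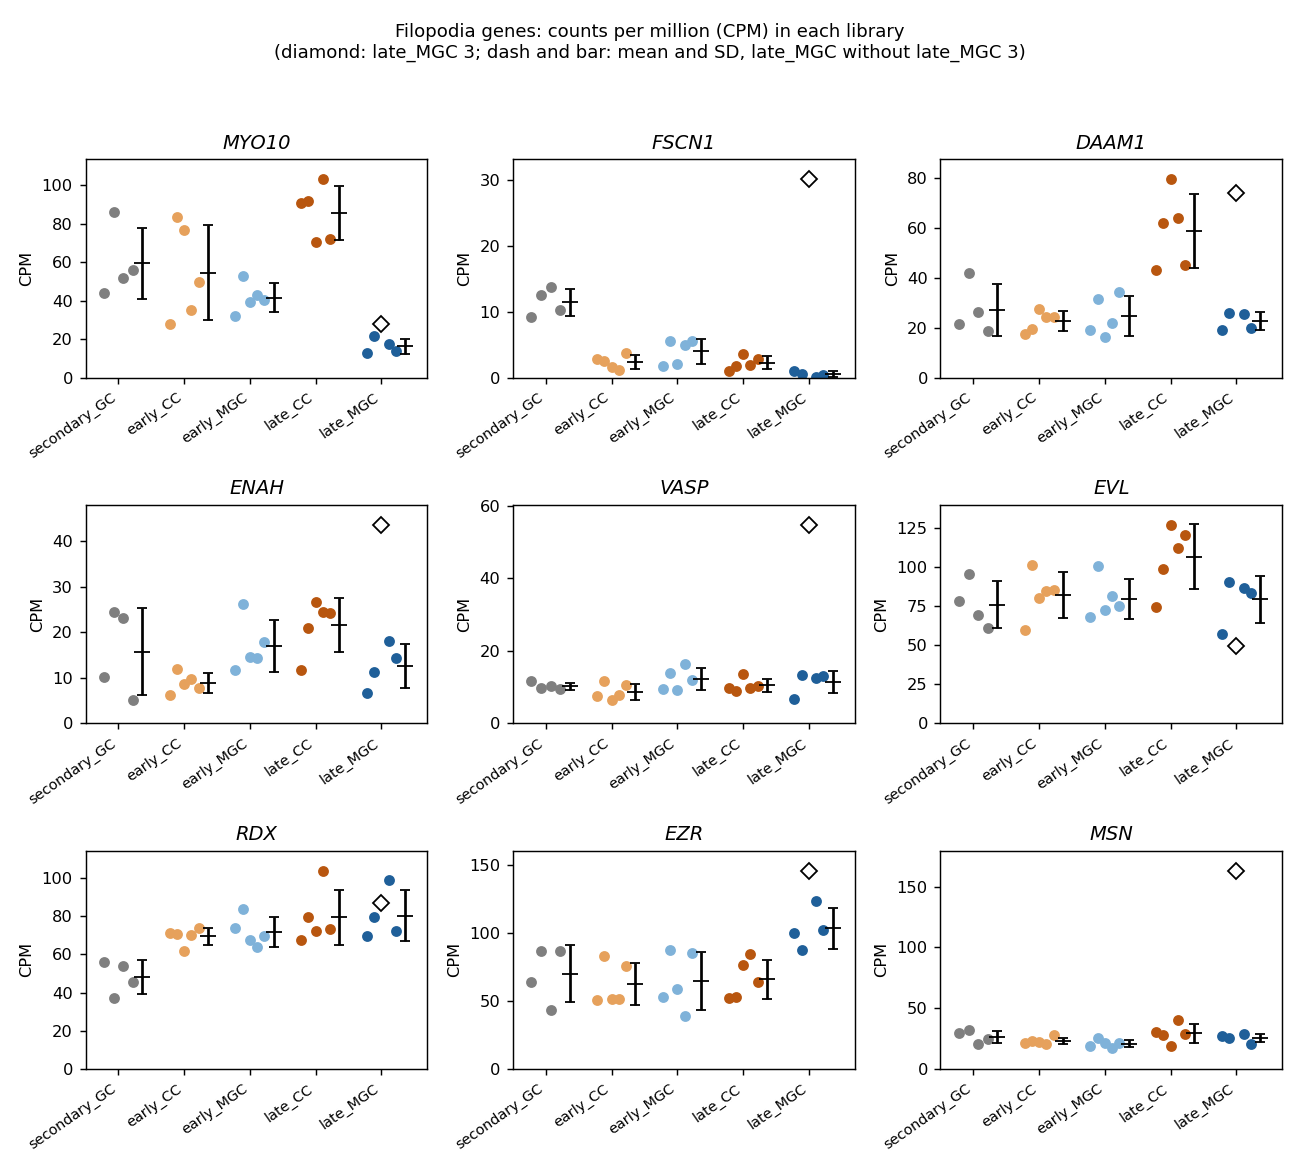
CPM (vertical axis from 0) of each of the 9 genes in all 24 libraries, by group along the horizontal axis; points are libraries, the dash and bar beside them the mean and SD, and the diamond is the library labelled late_MGC 3, which is left out of the late_MGC mean. MYO10 lies at 13 to 28.1 CPM in late_MGC, below the 70.5 to 103 CPM of late_CC, and the diamond is the highest late_MGC point for every gene but EVL and RDX.

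MYO10, the motor, fell in mural cells at the late antral stage, and its stage effect differed between mural and cumulus cells. MYO10 had 13, 21.5, 28.1, 17.2 and 13.8 CPM in late_MGC, against 32, 52.9, 39.4, 42.8 and 40.1 CPM in early_MGC. Every late_MGC library was below every early_MGC library, the library labelled late_MGC 3 (28.1 CPM) included. The log2 fold change was -1.08 (SE 0.25, adjusted p = 0.00407 by edgeR's quasi-likelihood test over 14298 genes), and -1.22 (adjusted p = 0.00124) without the library labelled late_MGC 3. In cumulus cells MYO10 had 90.5, 91.6, 70.5, 103 and 72.1 CPM in late_CC, against 28.1, 83.5, 76.6, 34.9 and 49.9 CPM in early_CC. These ranges overlapped, since early_CC 2 and early_CC 3 reached the level of late_CC. The log2 fold change of 0.66 (SE 0.25) passed with an adjusted p of 0.0343, but 5 of 10 fits that left out 1 library of these groups lost the call, and with exon length taken into account it was 0.17 (adjusted p = 0.532).

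Between the cell types of the late antral stage, MYO10 was 85.6 ± 13.9 CPM in late_CC and 18.7 ± 6.21 CPM in late_MGC (mean ± SD, n = 5 each), with no overlap. The log2 fold change was 2.01 (SE 0.26, adjusted p = 1.50e-06), or 2.15 without the library labelled late_MGC 3 and 1.53 (adjusted p = 5.01e-06) with length taken into account. At the early antral stage the values were 54.6 ± 24.7 CPM in early_CC and 41.5 ± 7.56 CPM in early_MGC (n = 5 each), and the log2 fold change of 0.27 did not pass (adjusted p = 0.516). The stage effect differed between the cell types: the interaction, late_CC over early_CC less late_MGC over early_MGC, was 1.74 on the log2 scale (SE 0.36, adjusted p = 0.000694). It kept its call in all 20 fits that left out 1 antral library, was 1.88 without late_MGC 3, and was 1.08 (adjusted p = 0.00852) with length taken into account. In secondary_GC, MYO10 had 43.8, 86.1, 51.9 and 56.1 CPM, and late_MGC lay below all of these (log2 fold change -1.46, SE 0.27, adjusted p = 0.000198, and -1.6 without the library labelled late_MGC 3). The order of the group means was late_CC, secondary_GC, early_CC, early_MGC and late_MGC, and of neighbours in that order only early_MGC and late_MGC did not overlap. In bulk RNA, fewer cells of a type and less RNA per cell cannot be told apart.

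FSCN1, the bundler, was most abundant in secondary_GC and near the floor of detection in late_MGC apart from the library labelled late_MGC 3. It had 9.28, 12.5, 13.8 and 10.3 CPM in secondary_GC, 1.79, 5.53, 2.1, 5.01 and 5.55 CPM in early_MGC, and 2.77, 2.50, 1.58, 1.21 and 3.81 CPM in early_CC. The early antral groups did not overlap secondary_GC. In late_MGC it had 1.08, 0.544, 30.2, 0.120 and 0.332 CPM, and in late_CC 1.03, 1.77, 3.53, 1.93 and 2.89 CPM. The value of 30.2 CPM, which is 563 reads, belongs to the library labelled late_MGC 3, and the other 4 late_MGC libraries held 2 to 31 reads each.

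That library set the tests of FSCN1 in comparisons with and without late_MGC, since all groups share 1 estimate of the spread. With it, the only pairwise call was late_CC against secondary_GC, at a log2 fold change of -2.32 (SE 0.95, adjusted p = 0.0495), and each of 9 fits that left out 1 library of these groups lost it. Without it, FSCN1 was lower in all 4 antral groups than in secondary_GC. The log2 fold changes against secondary_GC were then -1.40 in early_MGC (SE 0.45, adjusted p = 0.0391), -2.25 in early_CC (SE 0.46, adjusted p = 0.00366), -4.09 in late_MGC (SE 0.55, adjusted p = 2.92e-06) and -2.32 in late_CC (SE 0.46, adjusted p = 0.000191). Late_MGC against early_MGC was 0.67 (adjusted p = 0.645) with the library and -2.69 (SE 0.52, adjusted p = 0.000437) without it. Late_CC against late_MGC was -1.59 (adjusted p = 0.166) with it and 1.77 (SE 0.51, adjusted p = 0.0068) without it. The interaction was -0.74 (adjusted p = 0.695) with it and 2.62 (SE 0.67, adjusted p = 0.00324) without it. FSCN1 averaged 2.23 ± 0.983 CPM in late_CC and 2.38 ± 1.03 CPM in early_CC (n = 5 each), with a log2 difference of -0.07 (SE 0.89, or 0.44 without the library).

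DAAM1, the formin, rose in cumulus cells at the late antral stage. It had 43.2, 62.0, 79.3, 64.0 and 45.0 CPM in late_CC, against 17.6, 19.4, 27.4, 24.3 and 24.4 CPM in early_CC. All late_CC libraries were above all early_CC libraries. DAAM1 changed by a log2 fold of 1.39 (SE 0.30, adjusted p = 0.000496); it passed in all 10 fits that left out 1 library of these groups, and it was 0.94 (adjusted p = 0.00183) with length taken into account. DAAM1 was also higher in late_CC than in secondary_GC, which had 21.6, 42.0, 26.2 and 18.5 CPM (log2 fold change 1.16, SE 0.32, adjusted p = 0.00455).

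In mural cells DAAM1 had 18.9, 26, 74.0, 25.6 and 19.9 CPM in late_MGC, against 19.2, 31.4, 16.1, 22 and 34.4 CPM in early_MGC. Only the library labelled late_MGC 3, at 74.0 CPM, was above the early_MGC range. Late_MGC against early_MGC was 0.49 on the log2 scale (adjusted p = 0.26) with that library and 0.02 (SE 0.24, adjusted p = 0.959) without it. Late_CC against late_MGC was 0.69 (SE 0.29, adjusted p = 0.0631) with it and 1.15 (SE 0.24, adjusted p = 0.000409) without it, and the interaction of stage and cell type was 0.90 (adjusted p = 0.0987) with it and 1.37 (SE 0.33, adjusted p = 0.00198) without it. In both, the call without the library stood with length taken into account, at 0.66 (adjusted p = 0.00492) and 0.71 (adjusted p = 0.0295).

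Of the tip proteins, ENAH rose in cumulus cells at the late antral stage. It had 11.7, 20.9, 26.6, 24.5 and 24.2 CPM in late_CC, against 6.11, 11.9, 8.64, 9.78 and 7.75 CPM in early_CC. The ranges overlapped by 1 library of each group, late_CC 1 at 11.7 CPM and early_CC 2 at 11.9 CPM. The log2 fold change was 1.30 (SE 0.40, adjusted p = 0.00993), it passed in all 10 fits that left out 1 library of these groups, and it was 1.22 (adjusted p = 0.015) with length taken into account. ENAH in early_MGC had 11.7, 26.2, 14.6, 14.4 and 17.9 CPM, so that early_CC was lower than early_MGC by a log2 fold change of -1.04 (SE 0.40), with an adjusted p of 0.0832 and, without the library labelled late_MGC 3 in the fit, 0.03. In late_MGC it had 6.71, 11.3, 43.5, 18 and 14.3 CPM, with the 43.5 CPM in the library labelled late_MGC 3. The interaction was 1.1 (adjusted p = 0.137) with that library and 1.60 (SE 0.49, adjusted p = 0.0118) without it. In secondary_GC it had 10.3, 24.4, 23.1 and 5.04 CPM. Its test over all 5 groups passed at an adjusted p of 0.0461, and 14 of 24 fits without 1 library did not pass.

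VASP, a tip protein that binds profilin, stood between 6.37 and 16.5 CPM in all libraries but 1. It ranged over 8.94 to 13.6 CPM in late_CC, 6.37 to 11.5 CPM in early_CC, 9.29 to 16.5 CPM in early_MGC and 9.41 to 11.6 CPM in secondary_GC. Late_MGC had 6.68, 13.4, 54.7, 12.4 and 13 CPM, with the 54.7 CPM in the library labelled late_MGC 3. VASP was called higher in late_MGC than in secondary_GC (log2 fold change 1.15, adjusted p = 0.022) and lower in late_CC than in late_MGC (-1.06, adjusted p = 0.0177), and neither call stood without that library, at 0.42 (SE 0.26, adjusted p = 0.214) and -0.34 (SE 0.24, adjusted p = 0.279).

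EVL, the third tip protein, ranged over 74.4 to 127 CPM in late_CC, 59.4 to 101 CPM in early_CC, 49.7 to 90.6 CPM in late_MGC, 67.9 to 100.6 CPM in early_MGC and 60.9 to 95.7 CPM in secondary_GC. All groups overlapped. It passed only in late_CC against secondary_GC (log2 fold change 0.53, SE 0.21, adjusted p = 0.0425), where 6 of 9 fits without 1 library lost the call and the value with length taken into account was 0.19 (adjusted p = 0.452). The test over all 5 groups did not pass (adjusted p = 0.183).

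Within the family, counted per exon length, EVL held the largest share of the summed ENAH, VASP and EVL level in 23 of 24 libraries. Its mean share was 64.4 ± 0.992% in late_CC and 71.5 ± 1.77% in early_CC (n = 5 each), and the ENAH share was 23.3 ± 2.69% in late_CC and 13.9 ± 1.43% in early_CC. Neither pair of ranges overlapped. In the library labelled late_MGC 3 the shares were 44.9% VASP, 33.8% ENAH and 21.3% EVL; in the other 4 late_MGC libraries EVL held 64.7 ± 4.12%.

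Of the linkers, RDX was lowest in secondary_GC and higher in each antral group. It had 56.2, 37.0, 53.9 and 45.6 CPM in secondary_GC, 74.0, 83.6, 67.4, 63.6 and 69.5 CPM in early_MGC, and 71.4, 70.7, 61.9, 70.1 and 73.6 CPM in early_CC. It had 69.8, 79.8, 87.1, 99 and 72.4 CPM in late_MGC and 67.4, 79.7, 72.5, 104 and 73.5 CPM in late_CC. No antral library was as low as the highest secondary_GC library, and the 4 antral groups overlapped each other. The log2 fold changes against secondary_GC were 0.72 in early_MGC (SE 0.15, adjusted p = 0.00443), 1.0 in late_MGC (SE 0.15, adjusted p = 2.14e-05, and 1.01 without the library labelled late_MGC 3) and 0.75 in late_CC (SE 0.15, adjusted p = 0.000279, and 0.44 with length taken into account, adjusted p = 0.0237). In early_CC the value was 0.56 (SE 0.15, adjusted p = 0.0457), and 7 of 9 fits without 1 library lost that call. These 4 comparisons share the secondary_GC libraries.

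Between antral groups RDX passed no pairwise test by edgeR on counts as scaled. In late_CC against late_MGC it was -0.25 (adjusted p = 0.159), and -0.26 (adjusted p = 0.166) without the library labelled late_MGC 3. That comparison passed by limma-voom with library weights, at -0.29 (adjusted p = 0.0426), and by edgeR with length taken into account, at -0.56 (adjusted p = 0.00304).

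EZR was highest in late_MGC, the group in which MYO10 was lowest. It had 100.1, 87.7, 146, 124 and 102 CPM in late_MGC, against 52.7, 87.5, 58.7, 38.9 and 85.3 CPM in early_MGC. The groups did not overlap, though late_MGC 2 (87.7 CPM) and early_MGC 2 (87.5 CPM) lay next to each other. The log2 fold change was 0.91 (SE 0.21, adjusted p = 0.00297), and 0.85 (SE 0.21, adjusted p = 0.00474) without the library labelled late_MGC 3. Late_CC had 52.0, 52.8, 76.3, 84.8 and 63.7 CPM, all below late_MGC, for a log2 fold change of -0.96 (SE 0.21, adjusted p = 0.000635), and -0.89 (adjusted p = 0.00134) without that library. Late_MGC was also above secondary_GC (63.6, 87.1, 43.1 and 87.0 CPM) at 0.91 (SE 0.22, adjusted p = 0.00274), or 0.85 (adjusted p = 0.00462) without that library, and each of these 3 calls passed in every fit that left out 1 library.

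In cumulus cells EZR was 65.9 ± 14.5 CPM in late_CC and 62.6 ± 15.6 CPM in early_CC (n = 5 each), a log2 difference of 0.09 (SE 0.20, adjusted p = 0.754). The interaction of stage and cell type was -0.83 (SE 0.29, adjusted p = 0.0316), and -0.76 (adjusted p = 0.0438) without the library labelled late_MGC 3, and 7 of 20 fits without 1 library lost that call. With length taken into account the interaction was -1.03 (adjusted p = 0.00556).

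MSN was called in 3 comparisons with late_MGC, and none of these 3 calls stood in the edgeR fit without the library labelled late_MGC 3. It had 27.3, 25.1, 163, 28.7 and 20.6 CPM in late_MGC, against 18.5, 25.1, 21.5, 17.2 and 21.5 CPM in early_MGC, 19.2 to 40.3 CPM in late_CC, 20.4 to 27.6 CPM in early_CC and 20.5 to 31.8 CPM in secondary_GC. The 163 CPM belong to the library labelled late_MGC 3. With it, the log2 fold change of late_MGC was 1.38 against early_MGC (adjusted p = 0.0104) and 1.18 against secondary_GC (adjusted p = 0.0247), and late_CC against late_MGC was -1.0 (adjusted p = 0.031). Without it these were 0.44 (SE 0.17, adjusted p = 0.068), 0.23 (SE 0.18, adjusted p = 0.34) and -0.06 (SE 0.17, adjusted p = 0.818). With length taken into account and that library left out, late_MGC against early_MGC was 0.56 (adjusted p = 0.0192). Leaving out late_CC 1, 2, 3 or 5 also ended the call of late_CC against late_MGC, and leaving out secondary_GC 3 or 4 that of late_MGC against secondary_GC.

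Counted per exon length, EZR held 55.5 ± 6.69% of the summed EZR, RDX and MSN level in late_MGC and 49.1 ± 6.55% in early_MGC (n = 5 each), and 58.3 ± 2.87% in late_MGC without the library labelled late_MGC 3. RDX held 38.1 ± 2.65% in late_CC and 28.3 ± 6.07% in late_MGC, or 30.8 ± 2.43% without that library. In secondary_GC the RDX share was 27.7 ± 8.88% and the EZR share 56.1 ± 9.35% (n = 4). MSN held 9.29 to 18.9% in 23 libraries and 37.5% in the library labelled late_MGC 3.

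**Figure D2:**
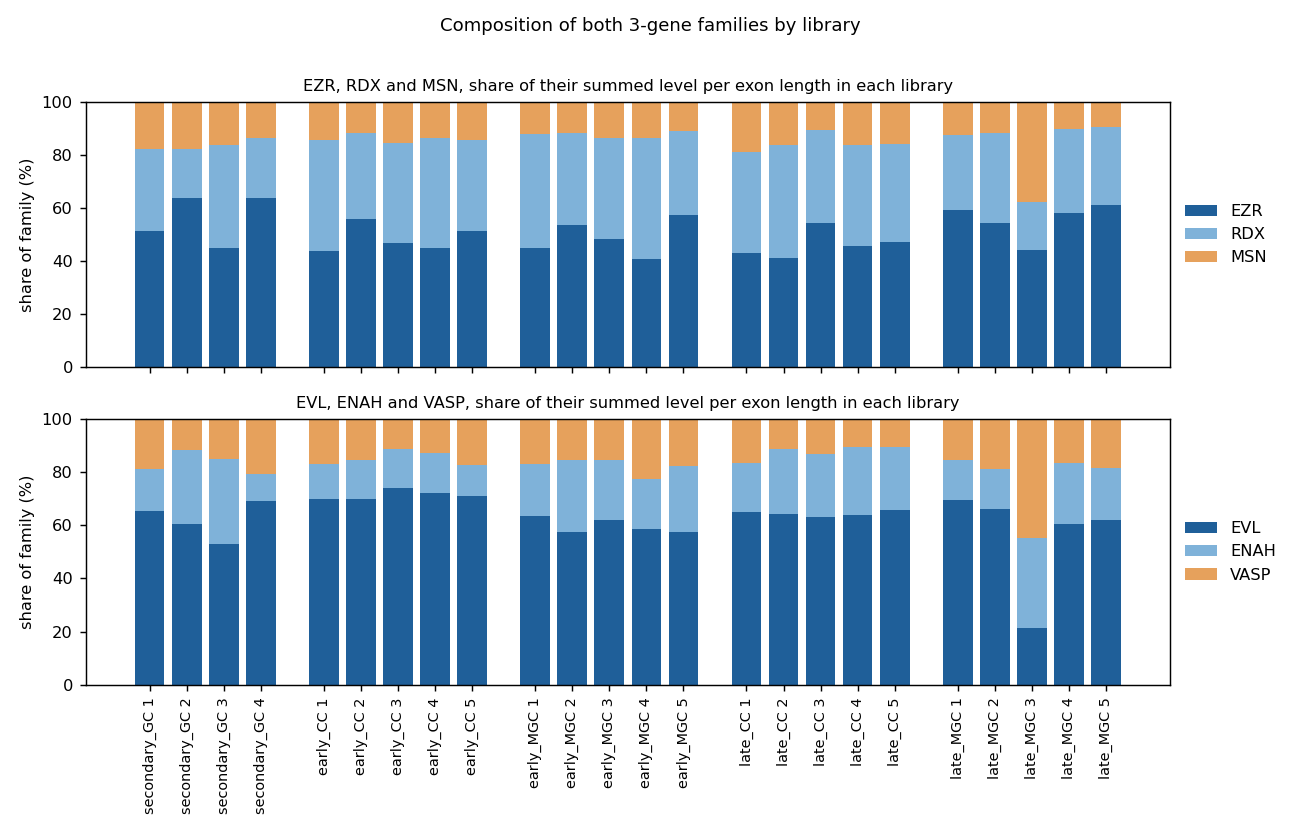
Share (%) of each gene in the summed level per exon length of the linkers EZR, RDX and MSN (upper panel) and of the tip proteins EVL, ENAH and VASP (lower panel), 1 bar per library, in 5 groups. The bar of late_MGC 3 stands apart in both panels, with 37.5% MSN and 44.9% VASP.

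Between stages of mural cells, late_MGC against early_MGC, 3 of 9 members were called, EZR and MSN higher and MYO10 lower, where 19.1% of all genes tested were called. Without the library labelled late_MGC 3 the 3 calls were EZR higher and MYO10 and FSCN1 lower, beside 24.1% of all genes. The median log2 fold change of the 9 was 0.49 with that library and 0.02 without it, against 0.05 and -0.0042 for all genes. Between stages of cumulus cells, late_CC against early_CC, 3 of 9 were called, all higher (MYO10, DAAM1 and ENAH), where 45.2% of all genes tested were called and 22.5% were called higher. Their median log2 fold change was 0.34, against 0.04 for all genes, and with length taken into account it was 0.07, against 0.03.

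Between cell types, early_CC against early_MGC had 0 of 9 members called by edgeR (13.1% of all genes tested), with an unadjusted p under 0.05 for ENAH alone; DESeq2 called 1, ENAH. Late_CC against late_MGC had 4 of 9 called, MYO10 higher and VASP, EZR and MSN lower, where 39.7% of all genes were called. Without the library labelled late_MGC 3 there were also 4, but MYO10, FSCN1 and DAAM1 were higher and EZR lower, beside 41.8% of all genes. The interaction was called for 2 of 9 members (31.4% of all genes), MYO10 and EZR, and without that library for 5 (36.4% of all genes), with FSCN1, DAAM1 and ENAH added on the side of MYO10.

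Against secondary_GC, 1 of 9 members was called in early_MGC (9.1% of all genes tested), 1 in early_CC (1.99%), 5 in late_MGC (31.8%) and 4 in late_CC (46%). RDX was the call in both early antral groups. In late_MGC, VASP, RDX, EZR and MSN were higher and MYO10 lower, and without the library labelled late_MGC 3 the calls were 4 (35.7% of all genes), RDX and EZR higher and MYO10 and FSCN1 lower. In late_CC, DAAM1, EVL and RDX were higher and FSCN1 lower. The median log2 fold change of the 9 against secondary_GC was 0.00096 in early_MGC, -0.16 in early_CC, 0.47 in late_MGC and 0.48 in late_CC; over all genes these medians lay between -0.0039 and 0.07. Over all 5 groups together 7 of 9 members were called, all but FSCN1 and EVL, where 65.1% of all genes were called. Without the library labelled late_MGC 3 it was 6 (68.7% of all genes), with FSCN1 called (adjusted p = 2.26e-06) and VASP (0.0848) and MSN (0.076) not. Several of these shares of members lie near the share of all genes.

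The CPM ranges did not overlap for 2 of 9 members in late_MGC against early_MGC (MYO10 and EZR, where 10.6% of all genes tested did not overlap), for 1 in late_CC against early_CC (DAAM1, 35.4% of all genes) and for 2 in late_CC against late_MGC (MYO10 and EZR, 22.7%). In early_CC against early_MGC the ranges of all 9 overlapped (16% of all genes did not). Against secondary_GC the ranges did not overlap for 2 members in early_MGC (FSCN1 and RDX, 10.1% of all genes) and the same 2 in early_CC (10.3%), for 3 in late_MGC (MYO10, RDX and EZR, 20.8%) and for 3 in late_CC (FSCN1, DAAM1 and RDX, 32.5%). Without the library labelled late_MGC 3, FSCN1 was added in late_MGC against early_MGC (3 of 9, 18.4% of all genes) and against secondary_GC (4 of 9, 30.6%), and DAAM1 in late_CC against late_MGC (3 of 9, 32.8%). When the 5 groups were put in order of their means, neighbours overlapped throughout for FSCN1, DAAM1, ENAH, VASP, EVL and MSN, and the only gaps were below early_MGC for MYO10, above secondary_GC for RDX and below late_MGC for EZR. Without the library labelled late_MGC 3 there were also gaps below secondary_GC for FSCN1 and below late_CC for DAAM1.

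**Figure D3:**
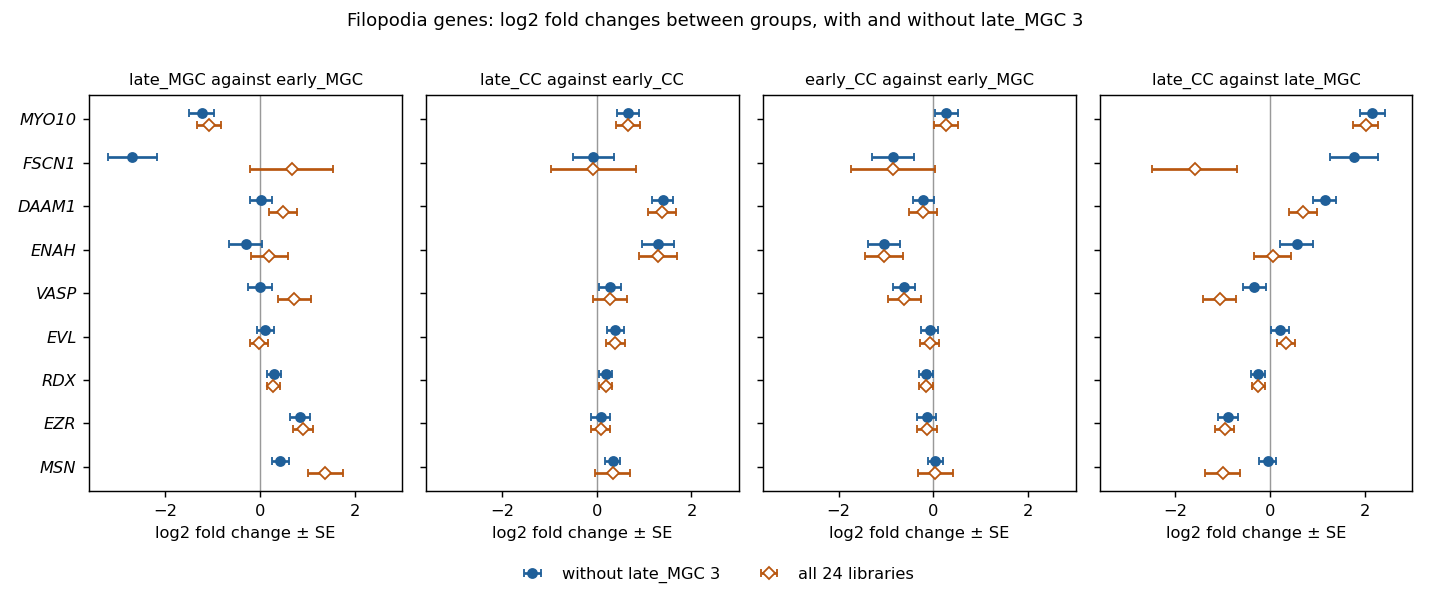
Log2 fold changes with their SE (horizontal axis) of the 9 genes (vertical axis) in 4 comparisons; diamonds are the fit of all 24 libraries and filled points the fit without late_MGC 3. In late_MGC against early_MGC the diamond and the point lie at 0.67 and -2.69 for FSCN1, at 1.38 and 0.44 for MSN, and at -1.08 and -1.22 for MYO10.

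Exon length moved with the stage effect in cumulus cells. In late_CC against early_CC the median log2 fold change of all genes was -0.52 for genes with under 1000 bases of exon, 0.17 for 2000 to 4000 bases, 0.53 for 4000 to 8000 bases and 0.82 for the 295 genes of 8000 bases or more. MYO10, with 8107 bases, had 0.66 and so lay below the median of its length class. DAAM1, with 5793 bases, had 1.39, above the 0.53 of its class, and ENAH, with 2701 bases, had 1.30, above the 0.17 of its class. In late_MGC against early_MGC the medians of the classes lay between -0.08 and 0.07, and MYO10 had -1.08 there, against -0.08 for its class. The trend of all genes was also present in late_CC against late_MGC, at -0.52 for the shortest and 0.58 for the longest class, where MYO10 had 2.01. In the interaction the longest class had a median of 0.93, and MYO10 had 1.74.

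A fit with an offset for length, made from each library's own trend of level on exon length, brought the class medians of late_CC against early_CC to between -0.16 and 0.24. In that fit MYO10 lost its call in late_CC against early_CC, EVL lost its call in late_CC against secondary_GC, and the other MYO10 calls, the DAAM1 calls and the ENAH call in cumulus cells stood. MYO10 was then 0.07 in late_CC against secondary_GC (adjusted p = 0.821). Of calls that edgeR made with the offset and not without it, 2 were RDX in late_CC against late_MGC and MSN in the interaction (-1.32, adjusted p = 0.0434), and that MSN call did not stand without the library labelled late_MGC 3 (-0.49, adjusted p = 0.124). What sets the trend with length was not tested.

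**Figure D4:**
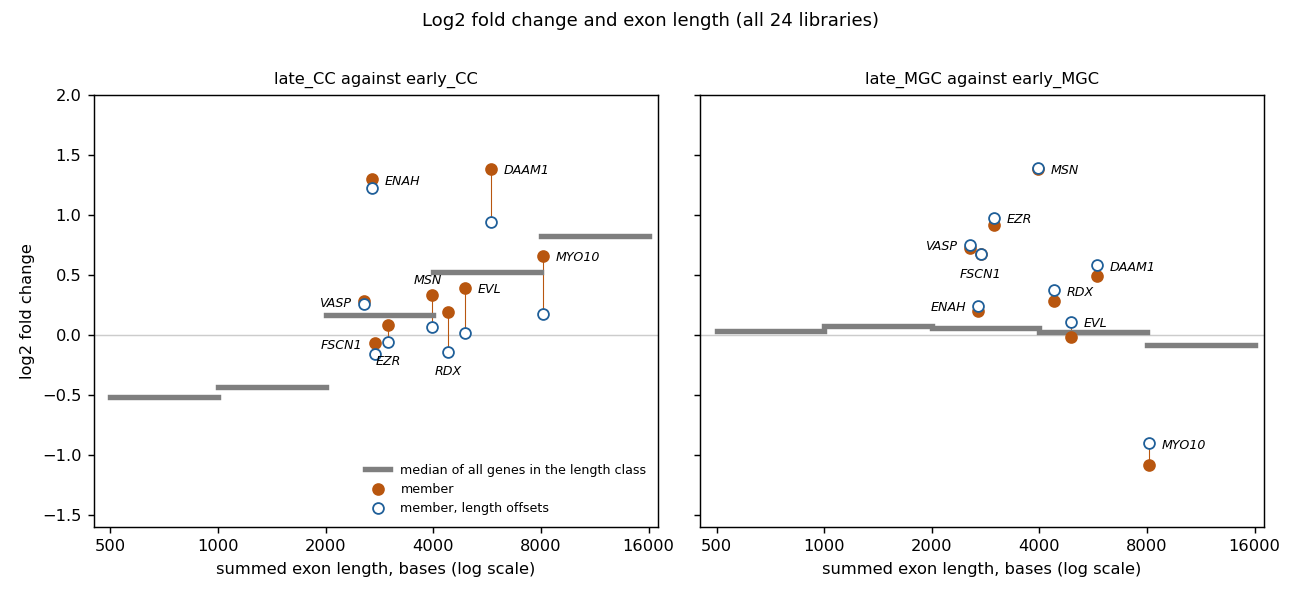
Log2 fold change (vertical axis) against summed exon length in bases (horizontal axis, log scale) for the 9 genes, as fitted (filled points) and with length offsets (open points); grey lines are medians of all genes tested in 5 length classes, of which the shortest and the longest are open-ended. In late_CC against early_CC (left) the grey lines lie at -0.52 for the shortest and 0.82 for the longest class and MYO10 at 0.66 as fitted and 0.17 with offsets, while in late_MGC against early_MGC (right) the lines stay between -0.08 and 0.07.

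Of 68 further genes listed for filopodia and their regulation, 65 were matched in the table and 58 tested. In late_MGC against early_MGC 11 of the 58 were called, 5 higher and 6 lower, where 19.1% of all genes were called, and without the library labelled late_MGC 3 these were 4 higher and 13 lower (24.1% of all genes). NHERF2, a scaffold that binds ezrin, had 0.445 ± 0.238 CPM in late_MGC and 8.88 ± 2.11 CPM in early_MGC (n = 5 each), a log2 fold change of -4.20 (adjusted p = 1.12e-06), and -4.00 without late_MGC 3. ZYX, which encodes zyxin, a binding partner of Ena/VASP proteins, had 8.32 ± 3.91 CPM in late_MGC and 36.0 ± 11.3 CPM in early_MGC (-2.04, adjusted p = 1.57e-05, and -2.02 without late_MGC 3). CDC42EP3, a CDC42 effector, had 2.76 (adjusted p = 0.000368), and 1.62 without that library. The microvillus bundler ESPN was also called lower, but it rested on 2 reads in late_MGC and 52 in early_MGC. FHOD1, a formin, was lower by a log2 fold change of -1.20 (adjusted p = 0.00921), or -1.73 without that library, and ITGAV, an integrin subunit, higher by 1.92 (adjusted p = 0.00831), which was 0.72 without that library.

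In late_CC against early_CC 22 of the 58 were called, 11 in each direction, where 45.2% of all genes were called. The list's median log2 fold change was 0.18, against 0.04 for all genes, and with length taken into account it was -0.07, against 0.03. ZYX was lower here too, at 15.9 ± 2.69 CPM in late_CC and 69.0 ± 7.40 CPM in early_CC (-2.11, adjusted p = 2.65e-06). Of genes for actin turnover, GSN (gelsolin, which severs and caps filaments) was lower by -2.45 (adjusted p = 0.00306), PFN1 (profilin, which feeds actin to formins and Ena/VASP proteins) by -2.03 (adjusted p = 3.78e-06) and CFL1 (cofilin) by -1.32 (adjusted p = 0.00014). PFN1 and CFL1 have short exons, of 827 and 1072 bases, and with length taken into account they had -1.50 and -0.80 and were called (adjusted p = 5.40e-06 and 0.00239). BAIAP2L1, which bends membranes outward, was higher by 1.92 (adjusted p = 1.48e-05), the bundler PLS1 by 2.05 (adjusted p = 0.00305), and the kinase genes ROCK1 and ROCK2 by 1.19 (adjusted p = 7.46e-06) and 1.63 (adjusted p = 0.000254). TMSB10, NHERF1, CAPZB and FHOD1 were also lower, and SSH1, RAPH1, SLK and MTSS1 also higher, by log2 fold changes of at least 1 in size. With length taken into account RAPH1 was not called (0.94, adjusted p = 0.0514), and SLK had 0.80, MTSS1 0.57, ROCK1 0.81 and ROCK2 1.27.

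Between cell types 10 of the 58 were called in early_CC against early_MGC, 5 in each direction (13.1% of all genes), and 22 in late_CC against late_MGC, 8 higher and 14 lower (39.7% of all genes). For late_CC against late_MGC the split was 14 higher and 8 lower without the library labelled late_MGC 3 (41.8% of all genes), and 5 higher and 16 lower with length offsets. FMNL1, a formin, was higher in cumulus cells at both stages, at 14.6 ± 3.03 CPM in early_CC and 1.09 ± 0.580 CPM in early_MGC (3.59, adjusted p = 0.000896), and at 19.8 ± 10.4 CPM in late_CC and 1.31 ± 0.941 CPM in late_MGC (3.63, adjusted p = 6.33e-05, and 3.34 without late_MGC 3). NHERF2 was higher in late_CC than in late_MGC (3.77, adjusted p = 7.59e-07), as were BAIAP2L1 (2.17) and MTSS1 (1.56), another gene for membrane bending, and without that library these values were 3.57, 2.33 and 1.57. ACTN1, FMNL3, PDPN, GSN and CDC42EP3 were called lower in late_CC than in late_MGC with all libraries and were not called without that library. TMSB10 (-2.92), TMSB4X (-2.33), NHERF1 (-1.61) and PFN1 (-1.57) were also lower and stayed called without it, at -1.90, -1.31, -1.69 and -1.68. DIAPH3 and CAPZA1 were called lower in both fits too. The interaction was called for 17 of the 58, 9 positive and 8 negative (31.4% of all genes). These were 16 positive and 9 negative without late_MGC 3 (36.4% of all genes), and 4 positive and 11 negative with length offsets. For late_CC against late_MGC and the interaction, no share of all genes is given by direction or with length offsets. The splits are therefore not read as a tilt of the listed genes. NHERF2 (4.30, adjusted p = 1.87e-05) and PFN1 (-2.74, adjusted p = 1.81e-05) led the list, with 4.11 and -2.85 without late_MGC 3.

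Against secondary_GC the counts were 2 of 58 in early_MGC (9.1% of all genes), 1 in early_CC (1.99%), 19 in late_MGC (10 higher, 9 lower, 31.8%) and 27 in late_CC (13 higher, 14 lower, 46%). Without late_MGC 3 there were 8 higher and 17 lower in late_MGC (35.7% of all genes). CFL1 was lower (-1.13, adjusted p = 0.00897) and ROCK1 higher (0.61, adjusted p = 0.0373) in early_MGC, and the crosslinker ACTN4 lower in early_CC (-1.12, adjusted p = 0.0361). In late_MGC, NHERF2 (-4.86, adjusted p = 1.19e-07) was lower and CDC42EP3 (3.17, adjusted p = 0.000122) higher, at -4.66 and 2.03 without late_MGC 3, while EPS8 had 36 reads over the group, against 0 in secondary_GC, which is at least 8.9-fold higher by a limit of 3 counts over the group; it was too low to test without late_MGC 3. In late_CC, GSN (-3.45, adjusted p = 0.000311) and NHERF1 (-2.53, adjusted p = 5.54e-08) were lower and PLS1 (2.81, adjusted p = 0.000723) higher.

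Across the 24 libraries, the genes with a pattern most like that of MYO10 were OSBPL5 (r = 0.908 of log2 CPM), IRF2BP2 (0.899) and P3H3 (0.879), and these were again the 3 most alike over the 23 libraries without late_MGC 3. Those most like RDX were MRS2 (0.946), CPSF2 (0.902) and FAM111B (0.884), and the same 3 led without that library. DAAM1 was most like RBFOX2 (0.924) and ARID4B (0.921), ENAH most like TBL1XR1 (0.882), PPP1R12A (0.873) and RASA2 (0.868), and EZR most like IK (0.870), DDX27 (0.845) and NUP50 (0.839). For EVL these were DDX31 (0.879), BAZ1B (0.844) and ZNF827 (0.834). FSCN1 was most like VASH1 (0.893), CXCR4 (0.879) and GADD45A (0.838), and VASP most like BTBD3 (0.873), PTPN12 (0.872) and CLIP1 (0.835). MSN was most like STAR (0.910), ACTR3 (0.900) and ST13 (0.870), but without the library labelled late_MGC 3 those 3 values were 0.458, 0.505 and 0.143. For VASP they were 0.709, 0.725 and 0.659 without it, and the 3 most alike were then ASPN (0.795), LRRTM2 (0.785) and INTU (0.784). Of the 3 most alike, none was shared between 24 and 23 libraries for DAAM1, EVL, VASP and MSN, and 1 was shared for FSCN1 (CXCR4), ENAH (TBL1XR1) and EZR (IK). Among the members themselves, the pair most alike over 24 libraries was DAAM1 and ENAH, with r = 0.73 (0.67 over 23), and over 23 libraries ENAH and EVL, with r = 0.72 (0.38 over 24). The pair furthest apart was FSCN1 and RDX, with -0.57 over 24 and -0.75 over 23. These are correlations over libraries that share group, depth and preparation, and they are given as a description.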

How the data were processed

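RNA-seq libraries of 5 groups of bovine follicle cells were analysed, 24 in all. The authors deposited 1 table of read counts. Its header names featureCounts 2.0.0, exons of Ensembl release 105 on ARS-UCD1.2, and no strand option, so sense and antisense reads were not separated. The submitters' processing notes name fastp 0.20.0, HISAT2 2.1.0 and SAMtools 1.10. The deposited table also gives an exon length per gene, in bases. A further count column, of undetermined reads (41567882 counts, 8.30% of all), belongs to no sample and was not used. The column names of late_MGC and secondary_GC do not give the replicate numbers of the sample titles, so these libraries are numbered by column order, and all names of libraries are those of columns.

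Symbols came from the RefSeq annotation of ARS-UCD2.0, where a pair of gene spans were each other's best match and shared at least 0.5 of their union. The lowest overlap of a member was 0.786 (RDX). This gave a symbol to 10805 of the 12219 genes averaging 1 CPM or more. After a shift of 1000000 bases it gave 1039, so a name can be wrong. CDC42, DIAPH1 and MYO15A of the listed related genes were not matched and are not analysed here, and INF2, LCP1, APBB1IP, CD44, PODXL, MYO7A and MYO7B were too low to test.

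Counts were tested with edgeR 4.0.16 in R 4.3.3 (TMM scaling, filterByExpr, robust quasi-likelihood fit, all libraries in 1 fit by group), and p-values were adjusted by Benjamini-Hochberg over 14298 genes with a threshold of 0.05. Each SE is the log2 fold change divided by the square root of its F. The common biological coefficient of variation was 42.4%. CPM are counts over the library total; TPM divide by exon length first. Length offsets were loess fits of log2(CPM + 0.5) on log2 exon length in each library, with a span of 0.5. The limit of 3 counts for a gene with none covers counting error alone, as the labels name no molecular tags. Alternatives were RLE scaling, no filter, DESeq2 1.42.0, limma 3.58.1 (voom with library weights), only the groups compared, leaving out libraries, length offsets and a replicate block. Length offsets with late_MGC 3 left out, and the 3 numbered groups without a block, were added after seeing the data. No 2 libraries of a group were copies (over 46 pairs, chi-square divided by its degrees of freedom was at least 17.4). Scripts were tested on simulated data.

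The members and the lists of related and marker genes were chosen with earlier results of these data known. All members are named. Related genes could be named in a comparison where they were called with a log2 fold change of at least 1 in size or among the 3 largest. Values are printed for some of these, not always the largest, and others are given by name or only within the counts. Likeness of pattern is Pearson's r of log2 CPM, with the 3 highest genes given, except for DAAM1, where 1 is not reported here.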

Additional observations from a re-analysis of the deposited data

Results flagged for a closer look

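In 5 of the 45 sets of CPM values tested (9 genes in 5 groups), 1 library lay far from the others of its group. Chance marks about 1 set in 20 where values are normally distributed. These sets share libraries, and all flagged sets but the last below are late_MGC 3, so the count cannot be weighed against that rate. FSCN1 had 30.2 CPM in the library labelled late_MGC 3, with 0.120 to 1.08 CPM in the other 4. DAAM1 had 74.0 CPM there, with 18.9 to 26 CPM in the other 4. VASP had 54.7 CPM there, with 6.68 to 13.4 CPM in the other 4. MSN had 163 CPM there, with 20.6 to 28.7 CPM in the other 4. In late_CC, VASP had 13.6 CPM in late_CC 3, with 8.94 to 10.1 CPM in the other 4.

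The effect of stage differed between cumulus and mural cells, by the interaction test of edgeR, for MYO10 (1.74 on the log2 scale, adjusted p = 0.000694) and EZR (-0.83, adjusted p = 0.0316).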

How the results depend on the processing

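With all libraries, members called were 1 in early_MGC, 1 in early_CC, 5 in late_MGC and 4 in late_CC against secondary_GC, 3 in late_MGC against early_MGC, 3 in late_CC against early_CC, 0 in early_CC against early_MGC, 4 in late_CC against late_MGC, 2 for the interaction and 7 over all groups. Leaving out 1 library gave, in the same order, 1 to 2, 0 to 2, 3 to 5, 2 to 4, 3 to 3, 2 to 4, 0 to 1, 3 to 4, 1 to 5 and 6 to 7. No share of all genes called is set beside the counts of this section. They describe how the calls depend on the processing and are not results about the members. Counts that moved by over 1.5 times were these. For early_MGC against secondary_GC the count was 2 with the 2 groups alone, without late_MGC 3, late_CC 3 and early_MGC 4, with voom weights, and with length offsets without late_MGC 3. For early_CC against secondary_GC it was 0 with RLE scaling or no filter, and 2 without the 3 libraries, with voom weights, and with length offsets without late_MGC 3. With the 2 groups alone it was 3 for late_MGC against secondary_GC and 2 for late_CC against late_MGC. Without a filter it was 2 for late_CC against secondary_GC. With length offsets without late_MGC 3 it was 5 for late_MGC against early_MGC, 2 for early_CC against early_MGC and 6 for the interaction. For early_CC against early_MGC it was 1 with the groups alone, DESeq2, voom weights or without the 3 libraries. For the interaction it was 5 without the 3 libraries or with voom weights.

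FSCN1 turned sign in 3 comparisons. For late_MGC against early_MGC its log2 fold change was -2.51 without the 3 libraries, -2.61 with length offsets without late_MGC 3, -2.94 with voom weights, and -2.69 to 0.98 over single libraries left out. For late_CC against late_MGC these were 1.49, 1.59, 2.22 and -1.91 to 1.77. For the interaction they were 2.17, 2.46, 2.75 and -1.05 to 2.62. MSN in late_CC against late_MGC was 0.040 without the 3 libraries. The cause was not tested beyond the values given. DESeq2 gave no adjusted p for MSN.

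Deviations from the group mean were correlated between same-numbered libraries of early_CC, early_MGC and late_CC. Of 15 pairs 4 had a correlation over 0.1 (median -0.011, range -0.153 to 0.285), and 5 of 15 libraries correlated best with their own number. No level to be met by chance was worked out, so a pairing of these libraries is not excluded. With the number as a replicate block, members called were 1 in early_CC against early_MGC and 4 in late_CC against early_CC, and without the block in the same 3 groups 1 and 3. FSCN1 rested on few reads in late_MGC, at 2 to 31 in 4 libraries.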
